A study of Homo sapiens with 12 samples.

Results

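Keratins of simple and barrier epithelium were followed in AGS cells, a human gastric adenocarcinoma line, during treatment with mycophenolic acid (MPA), which blocks IMPDH, an enzyme that guanine nucleotide synthesis needs. The group was listed as 8 genes, KRT7, KRT8, KRT18, KRT19, KRT23, KRT80, KRT81 and KRT86, and its probes were taken by gene symbol, old or current, from the platform annotation. Of the 48803 probes on the array, 8 carried such a symbol, and they stood for 6 of the 8 genes. KRT81 and KRT86 had no probe in that annotation and were not analysed here. Both KRT18 probes were detected on 0 of 12 arrays, so 5 keratin genes and 6 probes entered the tests, among 10469 genes tested.

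RNA was measured on 12 Illumina HumanHT-12 arrays. There were 2 arrays each of cells kept with MPA at 2 µg/ml for 12, 24, 48 and 72 h, and 4 arrays of cells harvested at 0 h. All arrays came from the same line, so each result is a result of AGS cells in culture. Untreated cells at 12 to 72 h were not among the samples, so hours with MPA and hours in culture cannot be told apart. The labels number the arrays of a group as replicates without saying whether they were separate cultures, and the p-values measure only the spread between these arrays, which may be technical. The sources used here do not give scan or slide positions.

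Keratins are the intermediate filament proteins of epithelial cells. A type I keratin pairs with a type II keratin, and the filaments run between desmosomes, hemidesmosomes and the nucleus. Simple epithelia such as the gastric lining typically use the type II keratin KRT8 with the type I keratins KRT18 and KRT19, and some ducts and glands add the type II keratin KRT7. KRT80 is a type II keratin of differentiating epithelium that is found at desmosome borders, KRT23 is a type I keratin, and KRT81 and KRT86 are hair keratins of type II. In the RefSeq gene table KRT8 and KRT18 are neighbours although their types differ, and KRT80, KRT7, KRT81 and KRT86 lie side by side in the type II cluster.

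The numbers of detected probes per array ranged from 14077 to 15764. Median raw intensity lay between 88.9 and 89.4 on the 72 h arrays, while that of the 0 h arrays lay between 96.7 and 104.2. The epithelial label of the cells was checked on 15 gastric epithelial markers, of which 14 had a probe. Detection on at least 2 arrays held for 11, among them EPCAM, CDH1 and VIL1, and 3 were detected on no array. On all 12 arrays 7 were detected. Of the mucins and trefoil factors listed, MUC1 and TFF1 were detected, while MUC5AC, MUC6, TFF2 and TFF3 had no probe or no detection. Of 10 fibroblast markers 8 were detected on no array, and of 9 leukocyte markers with a probe 5 were detected on no array, while 2 fibroblast markers (COL1A1 and ACTA2), 4 leukocyte ones (CD14, CD68, LYZ and ITGAM) and 2 endothelial ones (PECAM1 and ESAM) were detected on at least 2. KRT8 and KRT19, keratins that define simple epithelium, were detected on 12 of 12 arrays.

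KRT80 rose under MPA, and it was the only tested member called at 24 and 72 h and in the mean of the treated times. All signals below are log2 values after background correction and quantile normalization. KRT80 (probe ILMN_1705814, detected on 12 of 12 arrays) read 12.10, 12.18, 12.40 and 11.93 at 0 h, 12.71 and 12.30 after 12 h, 12.97 and 12.88 after 24 h, 13.23 and 13.23 after 48 h, and 12.72 and 12.75 after 72 h. The treated arrays were above every 0 h array on 7 of 8, the exception being a 12 h array, and the order of the group means was 0, 12, 72, 24 and 48 h.

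Averaged over 12 to 72 h, KRT80 was 0.70 higher than at 0 h on the log2 scale (SE 0.10), or 1.62-fold, with adjusted p = 0.000108 (limma, adjusted over all genes). It was 0.77 higher at 24 h (SE 0.14, adjusted p = 0.00103, limma) and 1.08 higher at 48 h (SE 0.14, 2.12-fold, adjusted p = 8.0e-05, limma). It was 0.58 higher at 72 h (SE 0.14, adjusted p = 0.00611, limma). At 12 h the difference was 0.36 (SE 0.14, adjusted p = 0.0761, limma), which did not pass the threshold of 0.05. It passed without 12 h replicate 2, at 0.56 (adjusted p = 0.0365, limma), and without 0 h replicate 3, at 0.44 (adjusted p = 0.0321, limma).

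Changes of this kind were common on these arrays. At adjusted p under 0.05 the share of all genes called, in either direction, was 34.3% (12 h), 41.6% (24 h), 43.5% (48 h) and 42.3% (72 h), and 51.8% for the mean of the treated times, with 24.5% higher and 27.3% lower. Of the 5 tested keratin members, 0 were called at 12 h, where 1 had an unadjusted p under 0.05. At 24 and 72 h and in the mean, 1 was higher and 0 lower, while 48 h had 1 in each direction. None of these counts at adjusted p under 0.05 exceeded the share of all genes called. The median log2 fold change of the 5 members in the mean was -0.03, beside -0.03 over all genes.

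**Figure D1:**
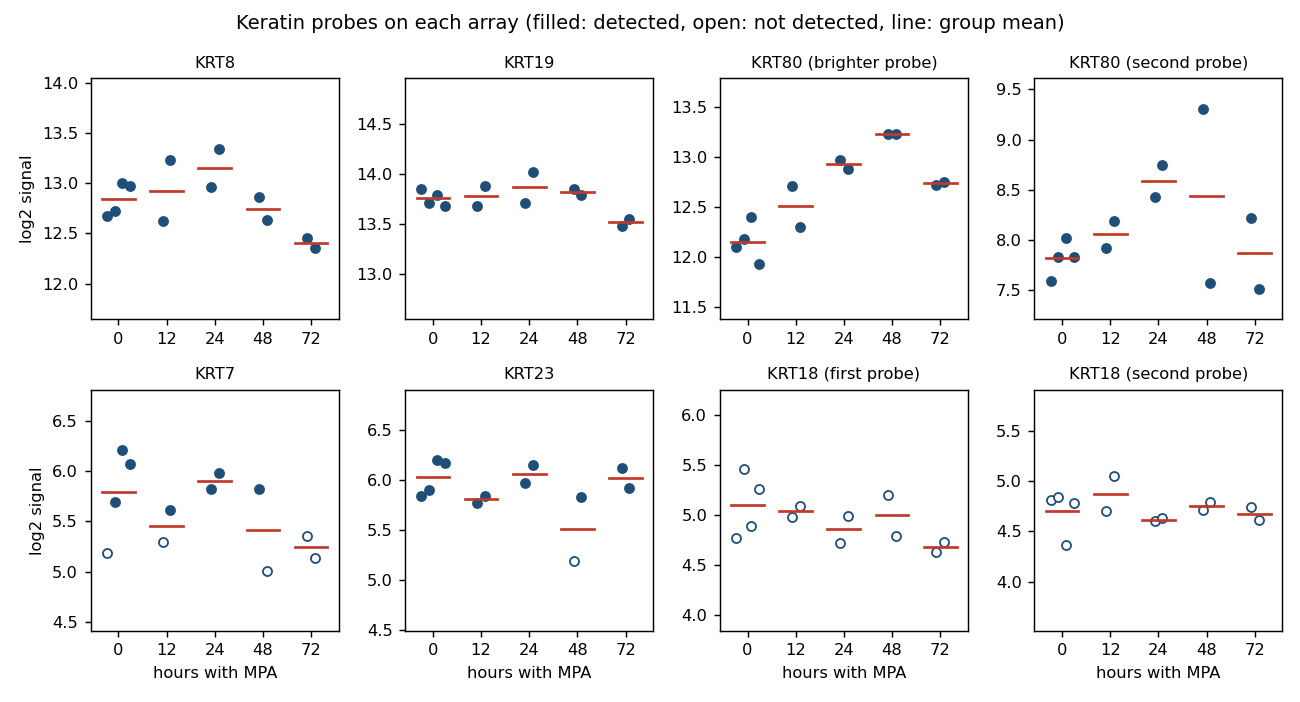
Log2 signal (vertical axis) of the 8 keratin probes on each array at 0, 12, 24, 48 and 72 h with MPA (horizontal axis), with filled circles for detected probes, open circles for probes not detected and red lines for group means, and each panel spanning the same number of log2 units. The KRT80 probe in the top row peaks at 13.23 on both 48 h arrays, KRT8 and KRT19 are lowest at 72 h, and both KRT18 probes are open circles throughout.

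Among the treated times, KRT80 was 0.73 higher at 48 h than at 12 h (SE 0.17, adjusted p = 0.00682, limma), in a comparison that called 29.5% of all genes. Without the lower 12 h array, replicate 2, this difference was 0.52 and was not called (adjusted p = 0.0762, limma). No neighbouring pair of times differed past the threshold: 24 h was 0.42 above 12 h (adjusted p = 0.164, limma), and 48 h was 0.31 above 24 h (adjusted p = 0.25, limma). The value at 72 h was 0.50 below that at 48 h (adjusted p = 0.168, limma), with no overlap between the arrays of both times. It was 0.19 below that at 24 h (adjusted p = 0.458, limma) and 0.23 above that at 12 h (adjusted p = 0.317, limma).

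Of the 5 members, 0 were called between 24 and 12 h, where 1 had an unadjusted p under 0.05 and 6.91% of all genes were called. The count was also 0 between 48 and 24 h, where 1 had an unadjusted p under 0.05 and 11.1% of all genes were called. It was 0 as well between 72 and 48 h (3 and 2.03%) and between 72 and 12 h (1 and 33.1%). The percentages are at adjusted p under 0.05 and are not to be set beside the unadjusted counts. No share of all genes at unadjusted p is given here. Of the 3 members between 72 and 48 h, KRT19 and KRT80 were lower and KRT23 higher. KRT80 was the member called between 48 and 12 h, and KRT8 the member called between 72 and 24 h.

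The second KRT80 probe did not follow the first at every time. It (ILMN_2366445, detected on 12 of 12 arrays) read 7.59, 7.83, 8.02 and 7.83 at 0 h, 7.92 and 8.19 after 12 h, 8.43 and 8.75 after 24 h, 9.31 and 7.57 after 48 h, and 8.22 and 7.51 after 72 h. Both 24 h arrays lay above the 0 h arrays, while at 48 h the second array lay below every 0 h array and the first above every array of the series. In the fit over all kept probes, which called 38.8% of them at 24 h, 40.8% at 48 h and 48.7% in the mean, this probe was called in none of these.

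The second probe's log2 difference from 0 h was 0.23 at 12 h (adjusted p = 0.659, limma), 0.77 at 24 h (adjusted p = 0.108), 0.62 at 48 h (adjusted p = 0.188) and 0.05 at 72 h (adjusted p = 0.931). In the mean it was 0.42 (adjusted p = 0.193, limma). At 48 h it was -0.25 without replicate 1 and 1.49 without replicate 2, which was then called (adjusted p = 0.00144, limma). With either 48 h array left out the 24 h difference stayed at 0.77 and was called (adjusted p = 0.0098, limma), and without replicate 2 so was the mean, at 0.64 (adjusted p = 0.00395, limma). Both probes are annotated to the same reference transcript. With the mean of both probes in place of the first, KRT80 was 0.31 higher at 72 h (adjusted p = 0.227, limma) and its difference between 48 and 12 h was 0.56 (adjusted p = 0.0892, limma), both past no threshold.

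Median scaling of the arrays, tried instead of quantile normalization, gave a median log2 fold change over all genes of -0.31 at 48 h and -0.32 at 72 h, in place of -0.04 and -0.02. The share of higher genes among those called was 53.3% in place of 47.8% at 12 h, 27.8% in place of 47.4% for the mean, 37.7% in place of 48.9% at 24 h, 20.9% in place of 47.7% at 48 h and 19.2% in place of 49.5% at 72 h. Under that scaling KRT80 was 0.44 higher in the mean and 0.69 higher at 48 h, both called, but it was not called at 72 h, at 0.14 (adjusted p = 0.627, limma), or for 48 against 12 h, at 0.36 (adjusted p = 0.291, limma).

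KRT8, the type II keratin of simple epithelium, was called between 72 and 24 h and at no time against 0 h. Its probe (ILMN_1753584) read 12.67, 12.72, 13.00 and 12.97 at 0 h, 12.62 and 13.23 after 12 h, 12.96 and 13.34 after 24 h, 12.86 and 12.63 after 48 h, and 12.45 and 12.35 after 72 h. Both 72 h arrays were below every other array, and both 24 h arrays were above every 48 and 72 h array, while 12 h held a low and a high array.

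KRT8 fell by 0.75 on the log2 scale at 72 h against 24 h (SE 0.21, adjusted p = 0.0229, limma), a comparison that called 20.1% of all genes. That call was lost without 24 h replicate 2, where the difference was -0.56 (adjusted p = 0.181, limma), and without either 72 h array, at -0.80 without replicate 1 and -0.70 without replicate 2. Against 0 h, KRT8 differed by 0.31 at 24 h (adjusted p = 0.18, limma) and by -0.44 at 72 h (95% interval -0.83 to -0.05, adjusted p = 0.0643, limma). The 72 h difference was called under 9 of 23 alternative settings, among them median scaling, where it was -0.90 beside the all-gene median of -0.32, and leaving out either 12 h array, where it stayed at -0.44 (adjusted p = 0.0332, limma).

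Averaged over the treated times, the difference of KRT8 from 0 h was -0.03 (95% interval -0.31 to 0.24, adjusted p = 0.843, limma). At 72 h against 12 h it was -0.52 (adjusted p = 0.0672, limma), and without 12 h replicate 1 it was -0.83 and was called (adjusted p = 0.0143, limma). The mean log2 signal of the 11 gastric epithelial markers was, like KRT8, lowest at 72 h: it lay between 9.48 and 9.64 on the 0 h arrays, 9.83 and 9.89 after 12 h, 9.66 and 9.69 after 24 h, 9.32 and 9.40 after 48 h, and 9.07 and 9.11 after 72 h. Its part in the KRT8 result was not tested, and fewer cells of a type and less RNA per cell cannot be told apart in bulk RNA. RefSeq lists 52 KRT8 pseudogenes and 68 KRT18 pseudogenes, and whether these probes also capture pseudogene transcripts was not tested.

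KRT19, the type I keratin of simple epithelium that lacks the tail domain of its relatives, stayed within a narrow range. Its probe (ILMN_1730777, detected on 12 of 12 arrays) read 13.85, 13.71, 13.79 and 13.68 at 0 h, 13.68 and 13.88 after 12 h, 13.71 and 14.02 after 24 h, 13.85 and 13.79 after 48 h, and 13.48 and 13.55 after 72 h. Only the 72 h arrays lay wholly outside the 0 h range. The difference in the mean was -0.02 (95% interval -0.20 to 0.17, adjusted p = 0.892, limma), an interval that leaves out a change as large as that of KRT80.

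At 72 h KRT19 differed from 0 h by -0.25 (95% interval -0.51 to 0.02, adjusted p = 0.12, limma), and at 24 h by 0.11 (adjusted p = 0.513, limma). Under median scaling the 72 h difference was -0.63 and was called (adjusted p = 0.0123, limma), beside the all-gene median of -0.32.

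**Figure D2:**
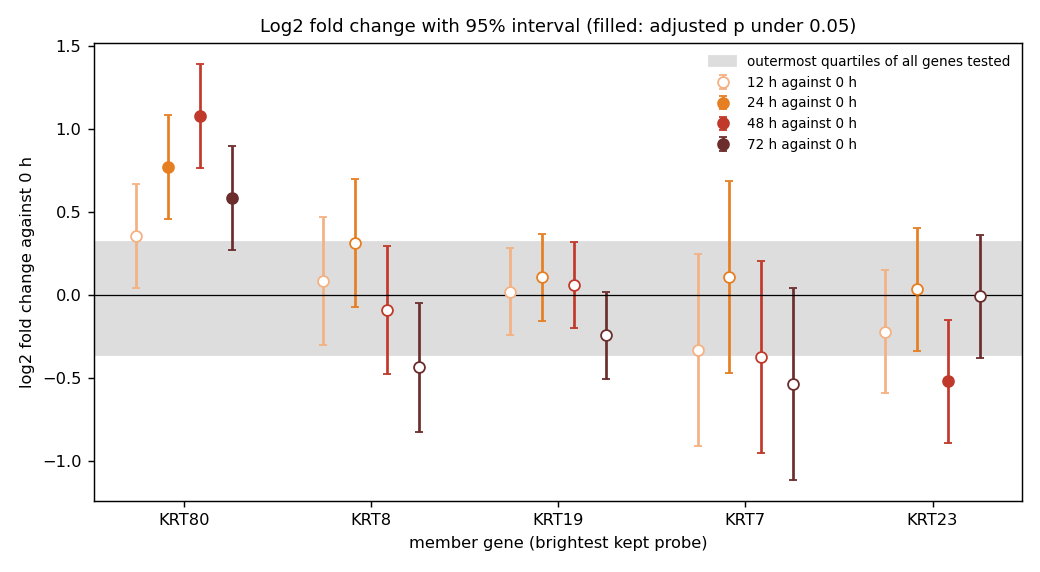
Log2 fold change against 0 h (vertical axis, with 95% intervals from the limma fit) for the 5 tested keratin genes (horizontal axis) at 12, 24, 48 and 72 h, with filled circles for adjusted p under 0.05 and grey for the outermost quartiles of all genes tested over the 4 times. KRT80 is above the grey at every time and filled at 24, 48 and 72 h, and the other filled circle is KRT23 at 48 h, at -0.52.

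KRT23, a type I keratin of glandular epithelium, was near the detection limit. It (ILMN_1791545, detected on 11 of 12 arrays) read 5.84, 5.90, 6.20 and 6.17 at 0 h, 5.77 and 5.84 after 12 h, 5.97 and 6.15 after 24 h, 5.19 and 5.83 after 48 h, and 6.12 and 5.92 after 72 h. The array on which it was not detected was replicate 1 of 48 h, the lowest of the series, while the other 48 h array was just under the lowest 0 h array. KRT23 was called lower at 48 h, at -0.52 (SE 0.17, adjusted p = 0.0258, limma), and 14 of 22 alternatives kept that call. Without 48 h replicate 1 the difference was -0.20 (adjusted p = 0.41, limma), and it was not called without 0 h replicate 3, at -0.47, or replicate 4, at -0.48. In the mean of the treated times it was -0.18 (adjusted p = 0.232, limma), and without 48 h replicate 2 it was -0.26 and was called (adjusted p = 0.0484, limma).

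KRT7, the type II keratin of ducts and glands, was detected on 7 of 12 arrays, with 0 of 2 at 72 h and 3 of 4 at 0 h. It (ILMN_2163723) read 5.19, 5.69, 6.21 and 6.07 at 0 h, 5.30 and 5.61 after 12 h, 5.82 and 5.98 after 24 h, 5.82 and 5.01 after 48 h, and 5.36 and 5.14 after 72 h. The 0 h arrays spanned a whole log2 unit and overlapped every treated group. The difference in the mean was -0.28 (95% interval -0.69 to 0.13, adjusted p = 0.226, limma). It was -0.48 without 0 h replicate 1, the low array, and was then called (adjusted p = 0.0336, limma). At 72 h, where KRT7 was not above background on either array, it differed from 0 h by -0.54 and was not called. The 95% interval of -1.12 to 0.04 includes no change (adjusted p = 0.123, limma). Set against the lowest signal detected on each array, the group means put it at least 1.115-fold lower. This is no firm bound, as 0 h replicate 1 was not detected either.

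KRT18, the usual type I partner of KRT8, was not seen by its 2 probes, which were made to different reference transcripts. The lowest detection p on any array was 0.0211 for ILMN_1730848 and 0.0659 for ILMN_1803408, above the limit of 0.01. Their log2 signals ran between 4.63 and 5.46 for the first and between 4.37 and 5.05 for the second. With all values at background, KRT18 has no fold change here, and whether its transcript was present in the cells was not measured by these probes.

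For each tested member, the genes whose signal ran most alike over the 12 arrays were found by Pearson's correlation, given as a description over arrays that share the 5 groups. For KRT80 they were AKR1B15 (r = 0.97, itself detected on 7 arrays), TIPARP (r = 0.96), a mono-ADP-ribosyltransferase that aryl hydrocarbon receptor agonists induce, and LBH (r = 0.96, detected on 9 arrays), a transcriptional cofactor. For KRT8 they were PA2G4, NAP1L4 and CRYBG2, with r = 0.95, 0.90 and 0.89. The highest values were 0.85 for KRT19 (SCO2), 0.87 for KRT23 (MND1) and 0.85 for KRT7 (POP7), and no member was among the nearest of another.

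Of the 47 other protein-coding keratins in RefSeq, 42 had a probe and 5 were tested, KRT9, KRT10, KRT13, KRT15 and KRT16. In the mean of the treated times 2 were higher and 1 lower, a share close to the 51.8% of all genes called. KRT15, a type I keratin of basal cells in stratified epithelium, read 6.54, 6.73, 6.67 and 6.40 at 0 h, 6.55 and 6.35 after 12 h, 7.94 and 8.14 after 24 h, 8.84 and 8.97 after 48 h, and 8.30 and 8.27 after 72 h. The 12 h arrays lay in and just under the 0 h range, and every array of 24 to 72 h was more than a log2 unit above it.

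KRT15 was 1.33 higher in the mean (SE 0.09, adjusted p = 1.4e-07, limma). Its log2 difference from 0 h was -0.14 at 12 h (adjusted p = 0.426, limma), 1.45 at 24 h, 2.31 at 48 h and 1.70 at 72 h, the 48 h value being 4.97-fold (adjusted p = 3.9e-08, limma). KRT15 and KRT80 thus both had their highest group mean at 48 h. The 3 later calls of KRT15 held in 23 of 23 alternatives.

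KRT13, a type I keratin of internal stratified epithelium such as that of the esophagus, fell. It read 7.92, 8.05, 8.53 and 8.42 at 0 h, 7.99 and 8.32 after 12 h, 7.70 and 7.49 after 24 h, 7.24 and 7.33 after 48 h, and 6.69 and 6.60 after 72 h. The 12 h arrays lay within the 0 h range and all later arrays below it. KRT13 fell by 0.81 on the log2 scale in the mean (SE 0.12, adjusted p = 0.000125, limma), by 0.63 at 24 h, by 0.95 at 48 h and by 1.58 at 72 h (adjusted p = 1.7e-05, limma). The 24 h call was lost without 24 h replicate 2, at -0.53 (adjusted p = 0.104, limma), and with the replicate number as a block, at -0.39 (adjusted p = 0.0822, limma).

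KRT9, a type I keratin of palm and sole skin, was 0.57 higher in the mean (SE 0.13, adjusted p = 0.00233, limma), and 0.42 and not called with the replicate number as a block (adjusted p = 0.0539, limma). It was detected on 8 of 8 treated arrays and on 2 of 4 at 0 h, and its signals were between 5.72 and 6.74 on treated arrays and between 5.26 and 5.82 at 0 h. KRT10, the type I keratin of suprabasal skin, differed by 0.16 (adjusted p = 0.0911, limma), and KRT16, a type I keratin of stressed epithelium detected on 2 arrays, by 0.18 (adjusted p = 0.307, limma). A probe of the antisense transcript KRT10-AS1, which is no keratin and was counted apart, was 0.89 higher in the mean (adjusted p = 1.1e-06, limma), with 10.26 to 11.09 on treated arrays and 9.60 to 9.74 at 0 h.

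**Figure D3:**
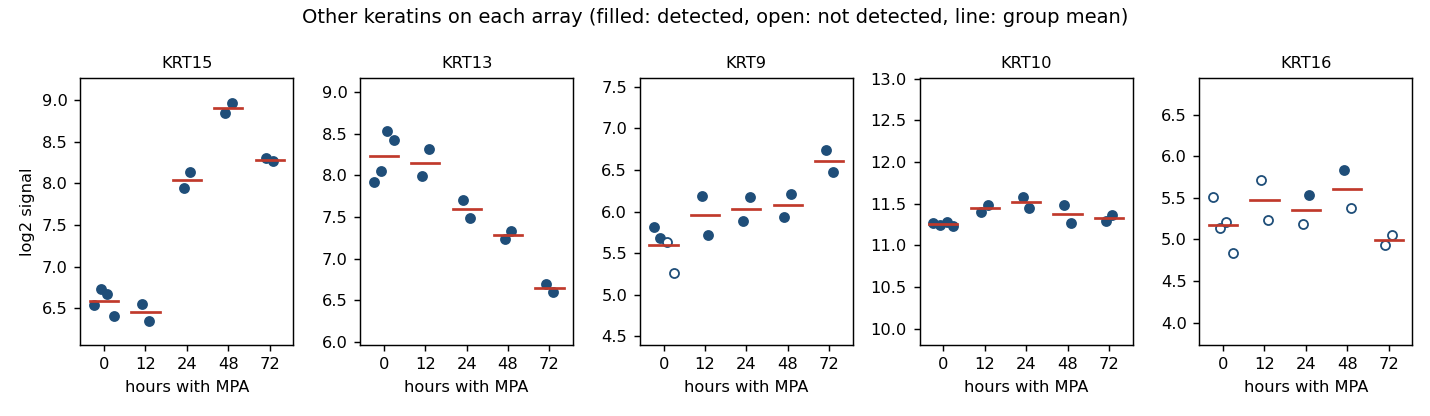
Log2 signal (vertical axis) of the 5 other tested keratins on each array at 0, 12, 24, 48 and 72 h with MPA (horizontal axis), with filled circles for detected, open circles for not detected and red lines for group means, and each panel spanning the same number of log2 units. KRT15 steps up between 12 and 24 h and reaches 8.84 and 8.97 at 48 h, and KRT13 goes down to 6.69 and 6.60 at 72 h.

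Genes around the keratin network were counted in lists for the mean of the treated times, in which 51.8% of all genes were called. Of 18 other intermediate filament genes 9 were tested. Of these 3 were higher, 3 lower and 3 not called, with a median log2 fold change of 0.02. The higher genes SYNC and IFFO1 were detected on no 0 h array, so their passing the detection filter rested on the treated arrays. Among the 7 tested genes detected on all 0 h arrays 1 was higher and 3 lower, with a median of -0.06. Over all genes so detected 23.0% were higher and 29.7% lower. NES, which encodes nestin, a filament protein of progenitor cells, fell by 1.40 (SE 0.12, adjusted p = 1.0e-06, limma), with 8.14 to 9.79 on treated arrays and 9.90 to 10.40 at 0 h. The B-type nuclear lamins LMNB1 and LMNB2 fell by 1.26 and by 1.10 (adjusted p = 8.7e-06 and 1.1e-07, limma), with every treated array below every 0 h array. The filament-related gene IFFO1, detected on no 0 h array, was at least 1.16-fold higher on treated arrays (adjusted p = 0.00377, limma).

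Of 20 desmosome and plakin genes 14 were tested, and 4 were higher, 4 lower and 6 not called, with a median of -0.009. PERP, a desmosome protein and p53 target, was 0.75 higher (adjusted p = 0.000432, limma), and DST, a plakin of hemidesmosomes, 0.70 higher (adjusted p = 0.00448, limma). For PERP 7 of 8 treated arrays lay above every 0 h array and 1 below every 0 h array. For DST only 4 of 8 lay above every 0 h array. The plakophilin PKP3 fell by 0.65 (adjusted p = 7.3e-05, limma) and the desmocollin DSC2 by 0.62 (adjusted p = 0.00187, limma), each on 8 of 8 treated arrays below every 0 h array.

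Of 16 genes of keratin binding and turnover 15 were tested, with 4 higher, 4 lower and 7 not called, and a median of 0.01. SFN, the epithelial 14-3-3 protein and a p53 target, was 1.41 higher (SE 0.13, adjusted p = 1.7e-06, limma), with 11.54 to 13.00 on treated arrays and 10.55 to 11.25 at 0 h. DNAJB6, a chaperone that binds KRT18, fell by 1.27 (adjusted p = 2.9e-07, limma), and by 0.46 with the mean of its probes. The ubiquitin ligase STUB1 fell by 0.73 (adjusted p = 0.000117, limma), and FAM83H, which brings casein kinase to keratin filaments, fell by 0.55 (adjusted p = 0.00124, limma), and was at -0.35 and not called with the replicate number as a block (adjusted p = 0.0509, limma).

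Of 26 epithelial transcription factors 19 were tested, with 4 higher, 7 lower and 8 not called, and a median of 0.02. The higher ones were KLF4, GRHL3, ELF3 and OVOL1, of which 1 was detected on no 0 h array and passed the detection filter on treated arrays alone. Among the 16 tested factors detected on all 0 h arrays 3 were higher and 7 lower, with a median of -0.04. Over all genes so detected 23.0% were higher and 29.7% lower. Those named by size were lower: SOX2, a factor of foregut epithelium, at -1.03 (adjusted p = 2.2e-05, limma), the splicing regulator ESRP1 at -0.90 (adjusted p = 3.3e-05), GATA4 at -0.75 (adjusted p = 1.5e-05) and TFAP2A at -0.65 (adjusted p = 0.000493). With the mean of a gene's probes SOX2 was at -0.49 and TFAP2A at -0.31, both called.

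Of 34 cornified envelope and barrier genes 16 were tested, and 9 were higher, 1 lower and 6 not called. Of the 9 higher genes 6 were detected on no 0 h array, so that their passing the detection filter rested on the treated arrays, and 3 (CNFN, S100A2 and ANXA1) were detected on all 0 h arrays. Of the 9 tested genes detected on all 0 h arrays 3 were higher and 1 lower, with a median of 0.05, beside 23.0% higher, 29.7% lower and a median of -0.05 over the 9148 such genes in all.

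CNFN, cornifelin of the cornified envelope, was 1.17 higher (SE 0.11, adjusted p = 3.1e-06, limma), with 8.78 to 9.43 on treated arrays and 7.56 to 8.17 at 0 h. The envelope precursor SPRR1A, with 5.62 to 6.90 on treated arrays and no detection at 0 h, was at least 1.56-fold higher (adjusted p = 9.7e-07, limma). ALOX12B, a lipoxygenase of the skin barrier, was at least 1.68-fold higher (adjusted p = 9.9e-06, limma), also with no detection at 0 h. The lower gene was the transglutaminase TGM2, which fell by 1.66 (adjusted p = 1.3e-07, limma). Of 13 hair and skin keratinocyte markers with a probe, 10 were detected on no array, among them KRT5, KRT14 and KRT1. Another 2 of these markers, KRT10 and HOXC13, were detected on every array.

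Of 9 mesenchymal transition genes 3 were tested, with 0 higher, 1 lower and 2 not called. The lower gene was CDH2, N-cadherin, at -0.46 (adjusted p = 0.0134, limma), which was detected on 1 of 8 treated arrays and 4 of 4 at 0 h. It was not called without 0 h replicate 3, at -0.38 (adjusted p = 0.0523, limma), or with the replicate number as a block, at -0.43 (adjusted p = 0.0862, limma).

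**Figure D4:**
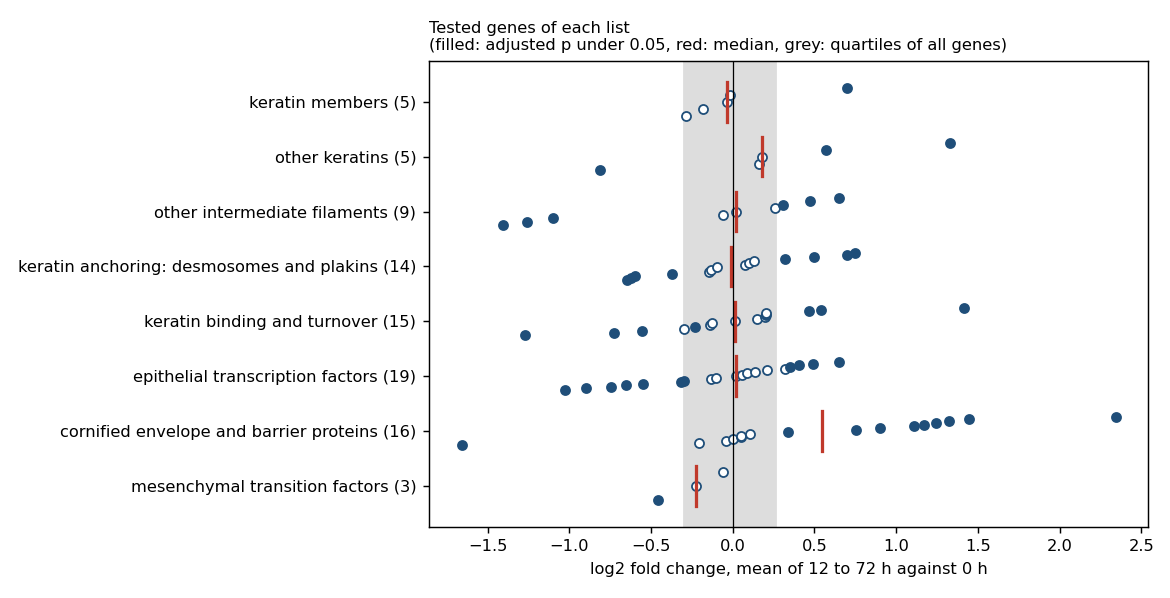
Log2 fold change of the mean of 12 to 72 h against 0 h (horizontal axis) for the tested genes of the keratin members and of each list (rows, with the number tested), with filled circles for adjusted p under 0.05, red lines for medians and grey for the quartiles of all genes. KRT80 is the filled circle of the members, at 0.70, and the cornified envelope and barrier row, with 9 filled circles to the right, holds 6 genes that were detected on no 0 h array.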

How the data were processed

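The keratin members, the gene lists and the rule for naming genes were chosen with earlier results of these data known. Per the file headers, the authors exported a non-normalized intensity for each probe, the average over its beads, and deposited a detection score next to it that equals 1 minus the detection p. The authors also deposited log2 values from lumi, the version of which the sources used here do not give.

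Intensities were corrected by normexp with negative controls inferred from the detection p, an offset of 16 was added, and their logarithms to base 2 were quantile normalized over 48803 probes (limma 3.58.1, statmod 1.5.0, R 4.3.3). Of these, 28098 probes name 1 gene in the platform annotation, 13 several and 20692 none, and 28059 took a current symbol through the gene identifier. A probe was retained if 2 or more arrays detected it at p under 0.01 (13772 probes), and the retained probe with the highest mean stood for its gene, which gave 10469 genes out of 18852. The number of arrays limits the precision.

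A 5-group limma model was fitted to all 12 arrays, with p-values adjusted by Benjamini-Hochberg over all genes and a threshold of 0.05. The comparisons of 48 with 12 h and 72 with 24 h were added after the data were seen. Every member was named. Of each list up to 4 genes were named, those past the threshold with the largest changes in the mean, if every array of the group with the higher signal detected them, and every other tested keratin. Up to 3 genes per member were named by correlation. Other list genes and markers named without values were picked after their values were seen. A fold against a group in which no array detected the probe was set against the lowest detected signal. The difference of replicate 1 from replicate 2 had correlations between groups of -0.14 to 0.15 over 10 pairs of groups. These leave out 0 h replicates 3 and 4 and cannot tell whether replicate numbers pair the arrays. Log2 differences between arrays of a group had an SD between 0.25 and 0.32. The fit was tested on simulated data. Alternatives were no background correction, an offset of 50, median scaling, the authors' values, no filter and detection on all 12 arrays. The mean of probes, other forms of the fit, the replicate block and each array left out were the others. As replicate numbers 3 and 4 occur only at 0 h, comparisons with 0 h under the block rest on 0 h replicates 1 and 2. Counts over genes detected on all 0 h arrays used the main fit and were added after the data were seen. No comparison columns of the authors were used.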

Additional observations from a re-analysis of the deposited data

Results flagged for a closer look

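KRT8 differed between treated times in the test of the difference itself: it was -0.75 at 72 h against 24 h on the log2 scale (adjusted p = 0.0229, limma), lower on 2 of 2 arrays. KRT80 differed likewise, at 0.73 for 48 h against 12 h (adjusted p = 0.00682, limma), higher on 2 of 2 arrays. Both comparisons were added after the data were seen, and both calls depended on single arrays, as given above. Among the 4 arrays of 0 h, a single array stood far from the others for 2 of 35 probes and genes looked at, where chance alone marks about 1 in 20. It was replicate 3 both times, low for the second KRT18 probe (log2 signal 4.37, not detected) and high for DSC2 (9.69, against 9.01 to 9.06 on the others). DSC2 was called lower in the mean with each array left out in turn.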

How the results depend on the processing

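KRT80 was called higher in the mean, at 24 h and at 48 h under 23 of 23 alternatives (0.44 to 0.78, 0.61 to 0.85 and 0.69 to 1.16), at 72 h under 21 (0.14 to 0.66) and at 12 h under 6 (0.15 to 0.56). For the 5 members, the count at 12 h was 1 in place of 0 without background correction, with an offset of 50, with the authors' values and with a variance trend. At 48 h it was 1 in place of 2 without background correction, with the authors' values, with detection on all 12 arrays, with only the groups compared, with a variance trend and with the replicate block. At 72 h it was 2 in place of 1 under all of these but the block, and with an offset of 50 and median scaling, and 0 with the mean of probes. For 72 against 12 h it was 1 in place of 0 without background correction, with an offset of 50, median scaling, the authors' values, detection on all arrays and a variance trend. For 48 against 12 h it was 0 in place of 1 with median scaling and the mean of probes, and for 72 against 24 h it was 2 with only the groups compared and with a variance trend. With an array left out in turn the member counts ranged 0 to 1 at 12 h, 1 to 2 at 48 h, 1 to 2 at 72 h, 1 to 2 in the mean, 0 to 1 for 48 against 24 h, 0 to 1 for 72 against 12 h, 0 to 2 for 48 against 12 h and 0 to 1 for 72 against 24 h. Signs turned under median scaling for KRT19 at 24 h (-0.07), the second KRT80 probe at 72 h (-0.20), KRT10 in the mean (-0.09) and KRT80 for 72 against 12 h (-0.20), and under the replicate block for KRT7 and KRT8 in the mean (0.06 and 0.11), none of them called. With arrays left out, signs turned for the second KRT80 probe at 48 h (-0.25 to 1.49) and 72 h (-0.31 to 0.40), KRT19 in the mean (-0.06 to 0.02) and at 24 h (-0.05 to 0.26), and KRT8 in the mean (-0.11 to 0.04). Among list counts, the higher genes numbered 2 in place of 4 for desmosomes and for keratin binding and 1 in place of 4 for transcription factors under median scaling, and 2 in place of 4 for transcription factors with the mean of probes. Without a filter 4 other keratins were higher in place of 2. With detection on all 12 arrays 1 other keratin and 1 other intermediate filament gene were higher, 3 barrier genes were higher and 0 lower, and 0 mesenchymal genes were lower, a filter that leaves out TGM2 and CDH2 because treated arrays did not detect them. With the replicate block 1 other keratin was higher and 0 mesenchymal genes were lower, and with arrays left out that last count ranged 0 to 2. Under median scaling the share of higher genes among those called was 14.4% in place of 50.7% for 48 against 12 h, 14.5% in place of 51.9% for 72 against 12 h and 16.9% in place of 47.8% for 72 against 24 h. The replicate block also ended the calls of KRT13 at 24 h, KRT23 at 48 h (-0.37), KRT9, FAM83H and CDH2. That block sets 0 h replicates 3 and 4 aside, as no treated array carries their numbers. Without background correction or with the authors' values changes of dim genes were smaller, with KRT23 at 48 h at -0.22 and not called, and KRT9 (0.26), DST (0.45), PKP3 (-0.37), TGM2 (-0.99) and CDH2 (-0.19) still called in the mean without the correction. Detection on all 12 arrays left out KRT7 and KRT23. Beyond genes left out by that filter and 0 h arrays set aside by the block, the cause of the changes was not tested. Replicate numbers came only from the labels, which do not say whether they pair the arrays.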
